A study of Xenopus laevis with 46 samples.

Results

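The hoxd1 homeologs hoxd1.L and hoxd1.S of the frog Xenopus laevis were followed by name through the stage 10.5 and stage 9 tables, as 2 rows of 43823 in all. Xenopus laevis is an allotetraploid, and many of its genes persist as a copy on a long (L) and a copy on a short (S) chromosome of each pair. The tables describe both rows as homeobox protein Hox-D1. PolyA-selected RNA was sequenced from 46 libraries of Nasco embryos, 29 of early gastrulae (stage 10.5) and 17 of late blastulae (stage 9). The older set held 3 libraries of embryos injected with a morpholino that blocks translation of β-catenin (bCatMO), 2 of embryos treated with lithium chloride (LiCl) and 2 of embryos injected marginally with 100 pg of siamois mRNA (Sia). The labels give xWnt8 mRNA for another 3 (Wnt8-labelled) and xCer L mRNA for 3 (Cer), while 6 came from whole control embryos. Embryos were also divided at stage 8, and their dorsal and ventral half-embryos, kept until stage 10.5, gave 5 libraries each. At stage 9 there were 2 bCatMO, 2 LiCl, 2 Sia, 3 Wnt8-labelled, 3 Cer and 5 control libraries. Morpholino and mRNAs went in at the 2-cell to 4-cell stage, and lithium was given at the 32-cell stage. For each treated library the labels name the control library of its batch, numbered 1 to 6 at stage 10.5 and 1 to 5 at stage 9. The batch numbers do not link the stages.

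Hox genes encode homeodomain transcription factors that give cells positional values along the head-to-tail axis, and hoxd1 belongs to the labial-like paralog group at the anterior end of the clusters. In the Xenopus gastrula the labial-like genes are among the first Hox genes to be transcribed, outside the organizer, and they are known as targets of the Wnt8 signal that the embryo itself makes and as genes that respond to retinoic acid. β-catenin, the intracellular carrier of Wnt signals, acts in an early dorsal wave that induces siamois and nodal3, and again after zygotic transcription has begun, in the ventrolateral margin. Lithium inhibits the kinase GSK3 and so stabilises β-catenin, while Cerberus is a secreted protein that binds Nodal, BMP and Wnt ligands.

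Values are the authors' RPKM, reads scaled to gene length and to library size, and differences between groups are log2 fold changes of RPKM + 0.5 with limma's standard error (SE) and a p-value adjusted over all tested rows by Benjamini-Hochberg. A row was called at an adjusted p below 0.05. Statements that treated libraries lay above or below controls, or 1 stage above the other, describe the hoxd1 rows only. The share of all rows that separated in those ways was not counted. Reads in genes, recovered from the RPKM steps, ranged from 24532922 to 45016807 per library at stage 10.5 and from 27934019 to 58468652 at stage 9. The injected mRNA was visible in the Cer libraries, where cer1.S had 4603, 4247 and 5762 RPKM at stage 10.5, against 69.5, 59.2 and 112 RPKM in the controls of the same batches. It was visible in the Sia libraries, where the siamois row Xelaev18019203m had 660 and 638 RPKM, against 22.3 and 16.1 RPKM in their controls. It was not visible in the Wnt8-labelled libraries: wnt8a.L had 55.9, 26.4 and 34.7 RPKM there at stage 10.5, against 93.2, 65.7 and 102 RPKM in the controls of those batches. That row cannot tell injected from embryonic wnt8a RNA, and at stage 10.5 it was also called lower in LiCl (log2 fold change -2.24) and Sia (-3.24). In the Wnt8-labelled libraries wnt8a.S was called lower too (-1.58). These values therefore do not show that the mRNA was absent, and whether its sequence matches the row was not tested. Hence the libraries are called Wnt8-labelled throughout. Whether replicates are from different clutches is not in the labels, and the spread behind the p-values may therefore be technical. In these bulk samples, fewer cells that transcribe hoxd1 and less hoxd1 RNA per cell cannot be told apart. Reads that match both homeologs could be assigned to either, so the sum of the pair is firmer than either row.

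hoxd1 was low at stage 9 and higher at stage 10.5, and its level in the gastrula depended on the batch. In the 6 controls at stage 10.5, hoxd1.S had a lowest value of 1.40, a median of 4.57 and a highest of 15.1 RPKM, and hoxd1.L a lowest of 2.01, a median of 4.49 and a highest of 15.6 RPKM. In the 5 controls at stage 9, hoxd1.S had 0.692, 1.18, 0.331, 0.825 and 1.19 RPKM, and hoxd1.L had 1.21, 1.54, 0.595, 1.11 and 1.23 RPKM. All control libraries of stage 10.5 lay above all those of stage 9 for both rows. The stages were not tested against each other, since their libraries sit in separate tables.

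The stage 10.5 controls fell into a high and a low set by batch. In controls 4, 5 and 6, hoxd1.S had 15.1, 6.92 and 13.4 RPKM, and in controls 1, 2 and 3 it had 1.40, 2.22 and 2.03 RPKM. For hoxd1.L the values were 15.6, 6.04 and 13.1 RPKM in controls 4, 5 and 6, and 2.01, 2.38 and 2.93 RPKM in controls 1, 2 and 3. The sets did not overlap for either row. The difference of the means on the log2(RPKM + 0.5) scale was 2.31 for hoxd1.S and 1.95 for hoxd1.L, and only 10 and 30 of 18834 rows had larger positive ones. Rows that were higher in controls 4 to 6 with no overlap and at least 2-fold made up 1.04% of all tested rows, and those lower in the same way 0.977%. The same 3 batches that hold the high controls hold all Wnt8-labelled and Cer libraries, and the low ones hold all bCatMO, LiCl and Sia libraries, so batch was a term of every whole-embryo fit. Of 58 tested rows of a list of zygotic Wnt targets that does not hold hoxd1, 17 were higher in controls 4 to 6 with no overlap and 0 were lower, against 10.9% higher and 12.5% lower over all rows. That list shares wnt8a, ventx1 and ventx2 with the ventral markers given next. Ventral markers summed to between 343.6 and 430.2 RPKM in controls 4 to 6 and to between 137.3 and 343.8 RPKM in controls 1 to 3, and early β-catenin targets to between 54.8 and 60.8 RPKM and between 80.5 and 98.6 RPKM. The part of embryo age or of other batch properties in these differences was not tested.

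**Figure D1:**
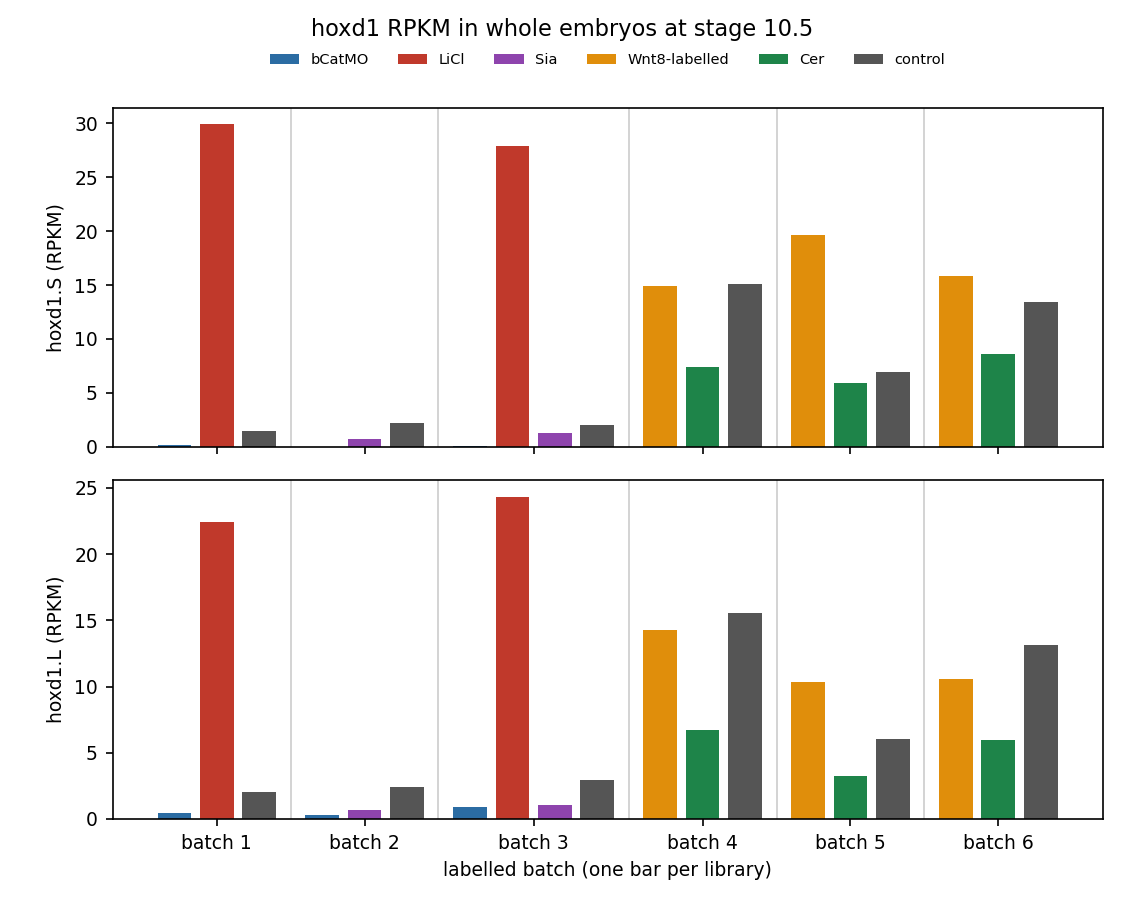
hoxd1.S (top) and hoxd1.L (bottom) in RPKM in each whole-embryo library of stage 10.5, one bar per library, grouped by labelled batch with the control at the right of its batch. The LiCl bars lie between 22.4 and 29.9 RPKM, the bCatMO bars under 1 RPKM, and the controls of batches 4 to 6 above those of batches 1 to 3.

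The β-catenin morpholino left both hoxd1 rows below 1 RPKM at stage 10.5. The 3 bCatMO libraries had 0.134, 0 and 0.0815 RPKM of hoxd1.S (6, 0 and 4 reads), against 1.40, 2.22 and 2.03 RPKM in their batch controls (63, 133 and 139 reads). With 0 reads in bCatMO 2, the limit that a count of 0 allows was 0.0623 RPKM, a floor of 3 reads that covers counting error only. hoxd1.L had 0.442, 0.309 and 0.931 RPKM in bCatMO, against 2.01, 2.38 and 2.93 RPKM in the controls. Every bCatMO library lay below every control for both rows, and hoxd1.L stood at 22.0%, 13.0% and 31.7% of its control in the 3 batches. The log2 fold change was -2.05 for hoxd1.S (SE 0.239, adjusted p = 0.000294) and -1.50 for hoxd1.L (SE 0.17, adjusted p = 0.00023). Both rows were called lower, as were 5.17% of all tested rows (1.98% were called higher and 7.15% in either direction), and by size of change they ranked 36 and 63 of 18834. The pseudocount holds back the fold change of such low values: it was -3.59 for hoxd1.S with a pseudocount of 0.1 and -4.77 with voom on the recovered reads. All 18 tested rows of dorsal organizer markers fell in these libraries too, and their part in the hoxd1 change was not tested.

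Lithium gave the highest hoxd1 levels of stage 10.5. hoxd1.S had 29.9 and 27.9 RPKM in the LiCl libraries, against 1.40 and 2.03 RPKM in their controls. hoxd1.L had 22.4 and 24.3 RPKM in LiCl, against 2.01 and 2.93 RPKM in the same controls. In RPKM the LiCl library was 21.4 and 13.7 times its control for hoxd1.S, and 11.2 and 8.30 times for hoxd1.L. The log2 fold change was 3.59 for hoxd1.S (SE 0.277, adjusted p = 4.28e-05), which ranked 2 of 18834 rows by size, and 2.95 for hoxd1.L (SE 0.197, adjusted p = 2.13e-05), which ranked 12. Of all tested rows 3.80% were called higher, 10.4% lower and 14.2% in either direction, and after scaling by size factors the split of calls was 1466 higher and 1333 lower in place of 715 and 1953. With those size factors both hoxd1 rows were still called higher. Without the batch term the calls were lost, with adjusted p of 0.0854 for hoxd1.S and 0.126 for hoxd1.L.

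Siamois mRNA, which turns on organizer genes downstream of the early dorsal signal, did not raise hoxd1. hoxd1.S had 0.666 and 1.30 RPKM in the Sia libraries, against 2.22 and 2.03 RPKM in their controls. hoxd1.L had 0.661 and 1.04 RPKM in Sia, against 2.38 and 2.93 RPKM in the controls. Both Sia libraries lay below both controls for either row, and the fall was called for hoxd1.L (log2 fold change -1.18, SE 0.197, adjusted p = 0.00383), where 1.83% of all rows were called lower, 2.34% higher and 4.16% in either direction. For hoxd1.S the value was -0.71 (SE 0.277, adjusted p = 0.215), with a 95% interval between -1.31 and -0.11. The hoxd1.L call rests on both Sia libraries, since the adjusted p was 0.0522 without Sia 1 and 0.0832 without Sia 2, and without the batch term it was 0.122. Ventral markers summed to between 66.2 and 74.5 RPKM in Sia and to between 137.3 and 343.8 RPKM in controls 1 to 3, of which control 1 shares no batch with Sia. In the fit with batch as a term, 6 of 8 ventral marker rows fell and 11 of 18 organizer marker rows rose.

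The Wnt8-labelled libraries did not stand apart from their controls at stage 10.5. hoxd1.S had 14.9, 19.6 and 15.8 RPKM in them, against 15.1, 6.92 and 13.4 RPKM in controls 4, 5 and 6. hoxd1.L had 14.3, 10.3 and 10.6 RPKM, against 15.6, 6.04 and 13.1 RPKM. The groups overlapped for both rows, and only batch 5 showed a rise over 1.5-fold, of 2.84 times for hoxd1.S and 1.71 times for hoxd1.L. Neither row was called, with log2 fold changes of 0.55 for hoxd1.S (SE 0.239, adjusted p = 0.725, 95% interval between 0.03 and 1.07) and 0.10 for hoxd1.L (SE 0.17, adjusted p = 0.974, 95% interval between -0.27 and 0.47). Of all rows 0.462% were called, 0.196% higher and 0.265% lower. Early β-catenin targets did move, with 7 of 14 tested rows higher, and all 8 ventral marker rows were lower.

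Cerberus lowered hoxd1.L in the same batches. hoxd1.L had 6.71, 3.28 and 5.95 RPKM in the Cer libraries, against 15.6, 6.04 and 13.1 RPKM in the controls, and each Cer library had between 43.1% and 54.3% of the control of its batch. hoxd1.S had 7.42, 5.90 and 8.55 RPKM in Cer, against 15.1, 6.92 and 13.4 RPKM, which is between 49.3% and 85.3% of the controls. The direction was the same in all 3 batches for both rows, although Cer and control values overlapped across batches. hoxd1.L was called lower (log2 fold change -1.01, SE 0.17, adjusted p = 0.00311), as were 2.90% of all rows (1.65% were called higher and 4.54% in either direction). hoxd1.S was at -0.60 (SE 0.239, adjusted p = 0.249, 95% interval between -1.12 and -0.08). Without the batch term the values were 0.55 for hoxd1.S and -0.03 for hoxd1.L, and neither passed. In the same libraries 15 of 18 organizer marker rows and all 8 ventral marker rows fell, and their part in the hoxd1 values was not tested. In the zygotic Wnt target list, 29 of 58 tested rows fell and 1 rose in Cer, with a list median of -0.72 against 0.00 for all rows. The largest falls were those of the mesoderm regulators mespb.S (log2 fold change -3.76), t.L (-3.61), mespb.L (-3.05) and t.S (-3.0). That list shares wnt8a, ventx1 and ventx2 with the ventral markers and dkk1 with the organizer markers, so the counts overlap.

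In order of fitted change from control at stage 10.5, with batch as a term, both rows ran LiCl, Wnt8-labelled, control, Cer, Sia and bCatMO. This is not an order of measured level: hoxd1.L had 3.28 to 6.71 RPKM in Cer and 0.661 to 1.04 RPKM in Sia, which share no batch. The fitted change in LiCl lay above that in Wnt8-labelled by 3.04 for hoxd1.S (adjusted p = 0.00263) and by 2.84 for hoxd1.L (adjusted p = 0.000927) on the log2 scale. These neighbours were compared across different batches through the batch terms of the limma fit. Of the other neighbours, Cer differed from control for hoxd1.L, as given above, and bCatMO from Sia for hoxd1.S (adjusted p = 0.00746). Wnt8-labelled and control, and Cer and Sia, did not pass the adjusted test for either row, and neither did Sia and bCatMO for hoxd1.L or Cer and control for hoxd1.S. For hoxd1.S the 95% intervals of Wnt8-labelled and of Cer against control, given above, left out 0.

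**Figure D2:**
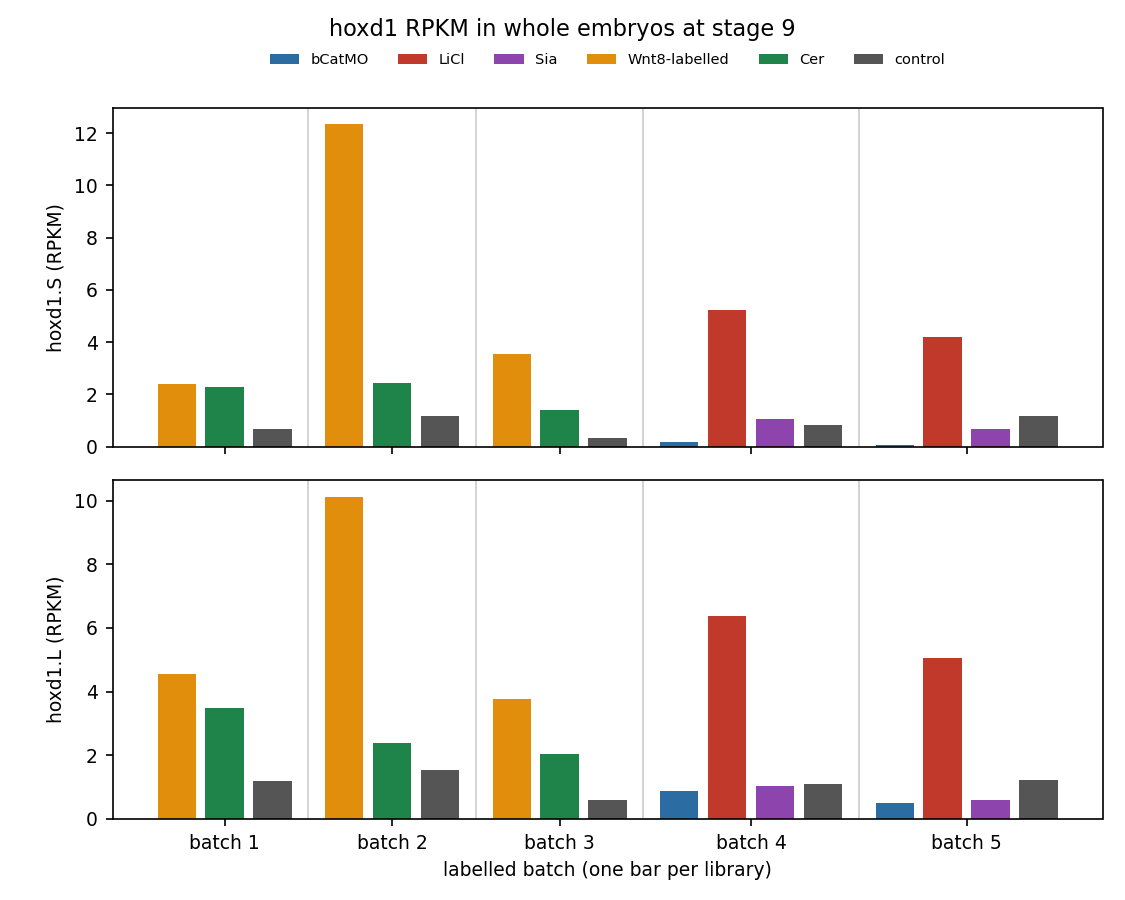
hoxd1.S (top) and hoxd1.L (bottom) in RPKM in each whole-embryo library of stage 9, one bar per library, grouped by labelled batch with the control at the right of its batch. The Wnt8-labelled and LiCl bars lie between 2.40 and 12.3 RPKM, against controls of 0.331 to 1.54 RPKM.

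At stage 9 the 2 hoxd1 rows had the largest changes of all tested rows in the Wnt8-labelled libraries. hoxd1.S had 2.40, 12.3 and 3.54 RPKM in them, against 0.692, 1.18 and 0.331 RPKM in controls 1, 2 and 3. hoxd1.L had 4.54, 10.1 and 3.78 RPKM, against 1.21, 1.54 and 0.595 RPKM. Every Wnt8-labelled library lay above every control for both rows, by 3.48, 10.5 and 10.7 times within batches for hoxd1.S and by 3.76, 6.58 and 6.36 times for hoxd1.L. The log2 fold change was 2.17 for hoxd1.S (SE 0.295, adjusted p = 0.0185) and 1.97 for hoxd1.L (SE 0.223, adjusted p = 0.00959), ranked 1 and 2 of 18530 by size. Both were called among 19 rows called higher, 0.103% of those tested (0.108% in either direction). The wnt8a.L row had 21.2, 12.7 and 23.6 RPKM in these libraries, against 27.0, 6.81 and 26.0 RPKM in the controls. In the zygotic Wnt target list 3 of 46 tested rows rose, the Wnt receptor fzd10.L (log2 fold change 1.49), the caudal-type homeobox gene cdx4.S (1.42) and fzd10.S (1.10). Early β-catenin targets had 5 of 15 rows higher. The calls depended on single libraries. For hoxd1.S the adjusted p was 0.0750 without Wnt8-labelled library 2, 0.114 without library 3, 0.213 without control 2 and 0.123 without control 3, and for hoxd1.L it was 0.0718 without library 3, 0.0705 without control 2 and 0.0727 without control 3. Both calls were also lost without the filter on low values, without the batch term, and with the libraries of the comparison alone.

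Lithium also raised hoxd1 at stage 9. hoxd1.S had 5.22 and 4.18 RPKM in LiCl, against 0.825 and 1.19 RPKM in controls 4 and 5. hoxd1.L had 6.37 and 5.06 RPKM, against 1.11 and 1.23 RPKM. All LiCl values lay above all controls, by at least 3.52 times within a batch. hoxd1.L was called higher (log2 fold change 1.89, SE 0.273, adjusted p = 0.0216), as were 0.0971% of all rows (0.448% in either direction). hoxd1.S was at 1.79 (SE 0.362, adjusted p = 0.0636, 95% interval between 1.00 and 2.58). The hoxd1.L call was lost without any one of its 4 libraries, with adjusted p of 0.0731 without LiCl 1, 0.2 without LiCl 2, 0.375 without control 4 and 0.0780 without control 5, and it was 0.135 without the filter on low values and 0.12 without the batch term.

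The morpholino had its clearest effect at stage 9 on hoxd1.S, without a call. hoxd1.S had 0.193 and 0.0689 RPKM in bCatMO (11 and 4 reads), against 0.825 and 1.19 RPKM in the controls (39 and 73 reads). hoxd1.L had 0.870 and 0.513 RPKM, against 1.11 and 1.23 RPKM. Both rows lay below their control in both batches, with no overlap with controls 4 and 5. Against all 5 controls of stage 9, hoxd1.S still lay below the lowest, at 0.331 RPKM. hoxd1.L overlapped with them, since control 3 had 0.595 RPKM. The log2 fold change was -1.25 for hoxd1.S (SE 0.362, adjusted p = 0.285) and -0.50 for hoxd1.L (SE 0.273, adjusted p = 0.973), and 0.696% of all rows were called, 0.513% lower. With a pseudocount of 0.1 hoxd1.S was at -2.30 and passed (adjusted p = 0.0348). In the same libraries 12 of 15 early β-catenin targets fell.

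Sia and Cer gave no call at stage 9. hoxd1.S had 1.05 and 0.671 RPKM in Sia, against 0.825 and 1.19 RPKM in the controls, and hoxd1.L had 1.02 and 0.593 RPKM, against 1.11 and 1.23 RPKM. Their log2 fold changes were -0.15 (95% interval between -0.94 and 0.64) and -0.37 (between -0.97 and 0.23), where 0.281% of all rows were called in limma's fit. In Cer, hoxd1.S had 2.26, 2.42 and 1.39 RPKM, against 0.692, 1.18 and 0.331 RPKM in the controls, and hoxd1.L had 3.50, 2.40 and 2.03 RPKM, against 1.21, 1.54 and 0.595 RPKM. Every Cer library lay above every control for both rows, which is a description and not a test. The log2 fold change was 1.06 for hoxd1.S (SE 0.295, adjusted p = 0.335) and 0.98 for hoxd1.L (SE 0.223, adjusted p = 0.142), beside 0.399% of rows called. Without Cer 2 the value for hoxd1.L was 1.32 and passed (adjusted p = 0.011). At this stage the order of fitted change from control was Wnt8-labelled, LiCl, Cer, control, Sia and bCatMO. No pair of neighbouring groups in it passed the test for either row.

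**Figure D3:**
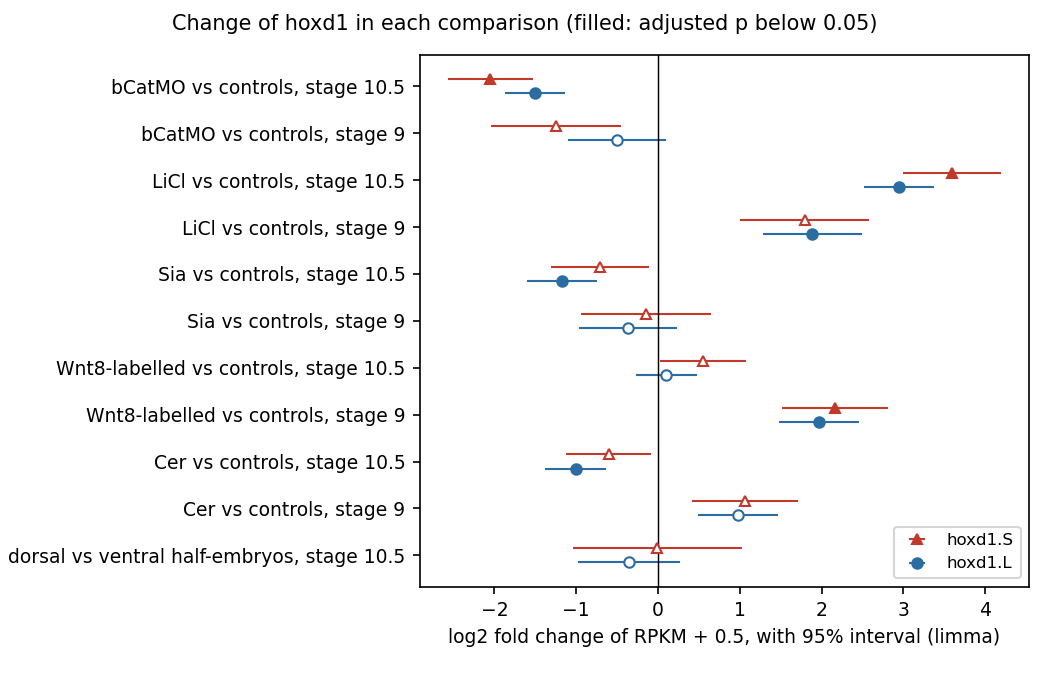
Log2 fold change of hoxd1.S (triangles) and hoxd1.L (circles) in each comparison, with 95% intervals from limma; filled symbols passed an adjusted p of 0.05. Both rows have filled symbols right of 0 for LiCl at stage 10.5 and the Wnt8-labelled libraries at stage 9, and left of 0 for bCatMO at stage 10.5; hoxd1.L alone has them for Sia and Cer at stage 10.5 and LiCl at stage 9.

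Several of these effects differed between the stages when the difference itself was tested, over 10 tests from the limma coefficients with Benjamini-Hochberg adjustment. The lithium effect was larger at stage 10.5 than at stage 9, by 1.80 for hoxd1.S (SE 0.456, adjusted p = 0.0014) and by 1.06 for hoxd1.L (SE 0.337, adjusted p = 0.00825). The Wnt8-labelled effect was smaller at stage 10.5, with a difference of -1.62 for hoxd1.S (adjusted p = 0.000803) and -1.87 for hoxd1.L (adjusted p = 6.24e-06). The Cer effect was below 0 at stage 10.5 and above 0 at stage 9, and the difference was -1.67 for hoxd1.S (adjusted p = 0.000775) and -1.99 for hoxd1.L (adjusted p = 4.82e-06). The stages differ in control level as well: the Wnt8-labelled and Cer libraries are set against controls of 6.04 to 15.6 RPKM at stage 10.5 and of 0.331 to 1.54 RPKM at stage 9. The part of that level in the differences was not tested.

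Dorsal and ventral half-embryos held hoxd1 at levels that overlapped. hoxd1.S had 7.37, 6.35, 5.36, 11.4 and 10.4 RPKM in dorsal half-embryos 1 to 5, against 22.8, 6.71, 2.00, 9.27 and 9.65 RPKM in ventral half-embryos 1 to 5. hoxd1.L had 5.58, 4.89, 4.90, 7.17 and 6.10 RPKM in dorsal half-embryos, against 14.0, 7.49, 3.42, 7.73 and 7.65 RPKM in ventral half-embryos. The ventral half-embryos held both the highest and the lowest value of each row, and within pairs the dorsal half-embryo was lower in 2 of 5 for hoxd1.S and in 4 of 5 for hoxd1.L. Ventral half-embryo 1 stood highest and ventral half-embryo 3 lowest for both homeologs. The log2 fold change was -0.01 for hoxd1.S (SE 0.471, 95% interval between -1.04 and 1.02) and -0.35 for hoxd1.L (SE 0.287, 95% interval between -0.98 and 0.27), with neither called at an adjusted p of 1.00 and 0.678% of all rows called by limma, 0.547% higher and 0.130% lower. With the pair as a block the adjusted p was 0.998 for hoxd1.S and 0.761 for hoxd1.L, beside 2.29% of all rows called. In the same libraries all 18 organizer marker rows were higher dorsally and 7 of 8 ventral marker rows were lower dorsally.

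**Figure D4:**
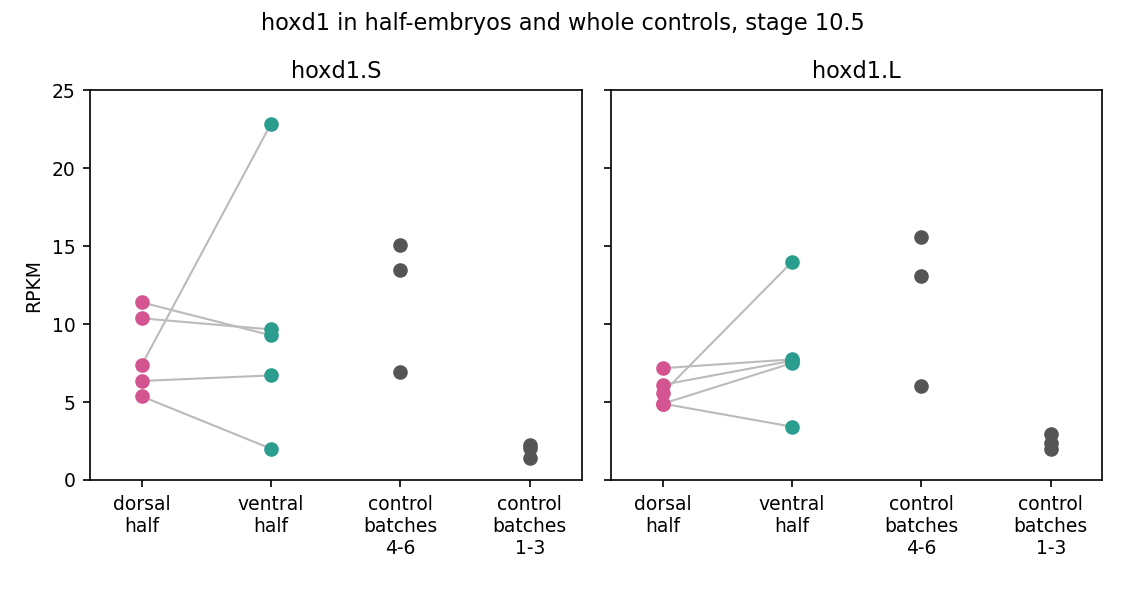
hoxd1.S (left) and hoxd1.L (right) in RPKM in dorsal and ventral half-embryos, with a line joining each pair, and in whole controls of batches 4 to 6 and of batches 1 to 3, all at stage 10.5. Dorsal values span 5.36 to 11.4 RPKM for hoxd1.S and 4.89 to 7.17 RPKM for hoxd1.L, inside the ventral range of 2.00 to 22.8 RPKM and 3.42 to 14.0 RPKM.

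The homeologs ran closely together. Across libraries Pearson's r between them was 0.970 over 29 libraries at stage 10.5 and 0.958 over 17 at stage 9, values that share library, batch and treatment and are given as a description. The gene lengths implied by the RPKM steps were 1567 bases for hoxd1.S and 1578 bases for hoxd1.L. The ratio of S to L RPKM was 1.33 and 1.14 in LiCl at stage 10.5, and 0.302, 0 and 0.0876 in bCatMO, against 0.697, 0.930 and 0.693 in controls 1 to 3. It lay between 1.04 and 1.90 in Wnt8-labelled and between 1.11 and 1.80 in Cer libraries, against 0.969 to 1.14 in controls 4 to 6. At stage 9 the ratio was 0.221 and 0.134 in bCatMO, against 0.741 and 0.967 in controls 4 and 5. hoxd1.S was the larger of the pair in both LiCl libraries of stage 10.5 and the smaller one in all 5 bCatMO libraries. Neither was particular to those treatments. At stage 10.5 the ratio was 1.01 and 1.25 in Sia, 1.10 to 1.70 in dorsal half-embryos and 0.587 to 1.63 in ventral half-embryos. In the controls of stage 9 it was 0.557 to 0.967. The S-minus-L difference in response was 0.65 for LiCl at stage 10.5 (SE 0.182, adjusted p = 0.0497), where 8.79% of 3674 homeolog pairs were called. It was -0.75 for bCatMO at stage 9 (SE 0.158, adjusted p = 0.0382), where 2.21% of 3707 pairs were called. For bCatMO at stage 10.5 it was -0.55 (adjusted p = 0.0552), where 8.17% of pairs were called, and the other 8 comparisons gave differences between -0.10 and 0.47 with no call. The share of pairs called in those was 0.193% in half-embryos, 3.48% in Sia, 0.136% in the Wnt8-labelled and 2.86% in Cer libraries at stage 10.5, and 0.0809% in LiCl, 0.135% in Sia, 0.0270% in the Wnt8-labelled and 0.135% in Cer libraries at stage 9. The S-minus-L differences were fitted with the pseudocount of 0.5 only. In bCatMO at stage 9 hoxd1.S had 11 and 4 reads, so the pseudocount weighs on the call there.

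**Figure D5:**
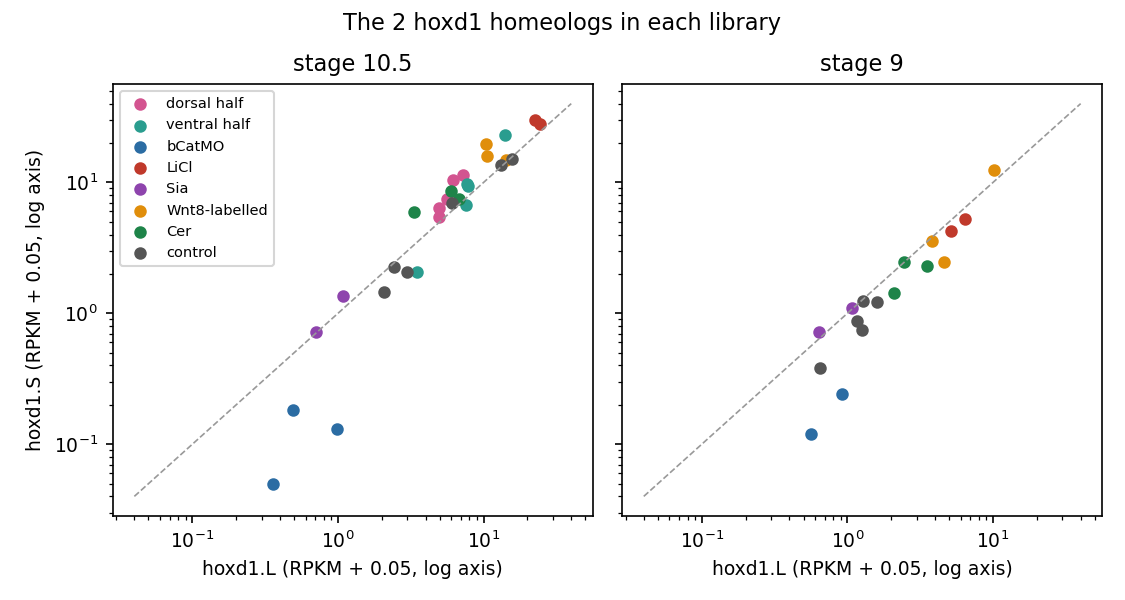
hoxd1.S against hoxd1.L in each library at stage 10.5 (left) and stage 9 (right), in RPKM + 0.05 on log axes; the dashed line marks equal values. The bCatMO libraries lie furthest below the line, and the LiCl libraries of stage 10.5 lie above it. The Sia, Wnt8-labelled, Cer and dorsal half-embryo libraries of that stage lie above it too.

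Among the Hox genes hoxd1 stood out by level at both stages. Of 86 Hox rows in the stage 10.5 table, hoxd1.S ranked 1 by its median over all libraries, at 7.37 RPKM, and hoxd1.L ranked 2, at 6.04 RPKM. At stage 9 hoxd1.L ranked 1 of 79 rows, at 1.54 RPKM, and hoxd1.S ranked 2, at 1.19 RPKM, and only these 2 had a median of at least 1 RPKM. The labial-like rows hoxb1.L and hoxb1.S stayed below 0.256 RPKM in every library at stage 10.5 and were not tested. Of 80 rows of the other Hox genes at stage 10.5, 9 reached the level for testing, and lithium raised 3 of them, the hoxa2 row Xelaev18033068m (log2 fold change 1.76), hoxc13.S (1.21) and hoxc13.L (0.98), where 3.80% of all rows were called higher. Sia raised 5 of the 9, among them hoxb6.S (3.23), hoxc13.L (2.70), hoxc8.L (2.49) and hoxb6.L (2.23), while hoxd1.L was lower there, and 2.34% of all rows were called higher. Over all libraries hoxb6.S, hoxc8.L and hoxb6.L had medians of 0.0569, 0.0373 and 0.0445 RPKM, with their highest values in Sia. Xelaev18033068m had a median of 0.171 RPKM and its highest value in LiCl. Such rows can reach the level for testing through the treated libraries, so these counts cannot be weighed against the share of all rows. In Cer 1 of the 9 was called, hoxc13.S, which was lower (-1.12), as were 2.90% of all rows.

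Gene neighbours were taken from the RefSeq table (assembly Xenopus_laevis_v10.1, used for names and order only), and those tested were not called in LiCl at stage 10.5. On one side, mtx2.L had a lithium log2 fold change of -0.21 (adjusted p = 0.0849) at stage 10.5, hnrnpa3.L of 0.17 (adjusted p = 0.105) and hnrnpa3.S of 0.22 (adjusted p = 0.0524). The gene next to hoxd1.S on that side, LOC108703005, had no value here. On the other side, the next Hox genes hoxd3.L and hoxd3.S had a median of 0 RPKM and were not tested. No sequence of hoxd1 or of its surroundings was examined.

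Calls among partners of Hox proteins and genes of the retinoic acid pathway are given beside the share of all rows called. Of 12 tested rows of the Hox cofactors (Pbx, Meis and Pknox homeodomain proteins that bind DNA with Hox proteins), 1 was called in LiCl at stage 10.5, the meis2 row Xelaev18039368m, which rose (log2 fold change 1.46), where 14.2% of all rows were called. In Cer 4 of the 12 rose and 1 fell, where 1.65% of all rows were called higher and 2.90% lower. The largest of these were the meis2 rows Xelaev18039368m (1.62), Xelaev18042559m (1.18) and Xelaev18041017m (-1.05), followed by pbx2.L (0.76). In bCatMO and the Wnt8-labelled libraries of stage 10.5, 0 of the 12 were called, and in Sia 1 was lower, where 1.83% of all rows were called lower. The cofactor medians lay between -0.11 and 0.05 in the 5 treatments at stage 10.5. Of 17 tested rows of the retinoic acid pathway, bCatMO lowered 3, aldh1a2.L (log2 fold change -1.03) and aldh1a2.S (-0.37), which make retinoic acid, and the receptor row rxrg Xelaev18023606m (-0.30), where 5.17% of all rows were called lower. Lithium raised 1 and lowered 2 of the 17, a share near the 14.2% of all rows called there. Cer raised 4 and lowered 2 of the 17. The largest changes were those of the retinoic acid binding protein row crabp2 Xelaev18040535m (1.41) and the degrading enzyme cyp26a1.L (0.83). Next came aldh1a2.S (-0.77) and the crabp2 row Xelaev18042772m (0.74). Over the zygotic Wnt target list lithium at stage 10.5 raised 25 of 58 tested rows and lowered 5, with a median of 0.34 against -0.06 for all rows, where 3.80% of all rows were called higher and 10.4% lower. bCatMO raised 2 and lowered 12 of the 58, beside 1.98% higher and 5.17% lower over all rows, with a median of -0.15 against -0.01. Within that list sp5.L rose by 3.05 in LiCl, close to the hoxd1 rows, and wnt8a.S and wnt8a.L were lower (-2.43 and -2.24).

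By likeness of response, the rows nearest to hoxd1 included siamois rows and sp5.L, known targets of β-catenin. Over 13 treated libraries of stage 10.5, each taken as a log2 difference from the control of its batch, hoxd1.S correlated best with hoxd1.L (Pearson's r 0.977), then with the siamois row Xelaev18019204m (0.969), sp5.L (0.968), the siamois row Xelaev18000882m (0.966) and foxb2.S (0.953). hoxd1.L correlated best with sp5.L (0.979), hoxd1.S (0.977), Xelaev18000882m (0.956), Xelaev18019204m (0.955) and the caudal-type homeobox gene cdx2.S (0.940). These are the highest of 18833 rows compared, chosen for that, and the libraries share controls. Of them, foxb2.S was not called in bCatMO (log2 fold change -0.20, adjusted p = 0.413 by limma), and its value in Cer was above 0 (0.34). It was not tested in the half-embryos or at stage 9. Both siamois rows rose in LiCl (3.54 and 3.38) and fell in bCatMO (-1.39 and -1.03), as hoxd1 did. Xelaev18019204m was at 0.23 in Sia and 0.02 in Cer, where hoxd1.L was called lower (-1.18 and -1.01). Xelaev18000882m was called higher in the Wnt8-labelled libraries of stage 10.5 (1.36, adjusted p = 0.0355 by limma), where hoxd1.L was at 0.10. How far the correlations rest on LiCl and bCatMO was not tested. In values that the choice did not use, some of these rows ran with hoxd1 and some did not. The siamois rows had dorsal-over-ventral log2 fold changes of 1.09 and 1.69 and were at 0 or low in ventral half-embryos, while sp5.L (-0.21) and cdx2.S (-0.11) were near 0 like hoxd1. None of these 4 was called by limma in the fit without the pair as a block, and results with the pair are not given for them. At stage 9 sp5.L had a log2 fold change of 1.71 in the Wnt8-labelled libraries (adjusted p = 0.153). Xelaev18019204m had 1.84 there (adjusted p = 0.00803). In bCatMO at stage 9 Xelaev18019204m was at -3.82 (adjusted p = 8.7e-06 by limma) and hoxd1.S at -1.25. These sizes cannot be compared, since the pseudocount of 0.5 holds back the fall of the lower row. Controls 4 and 5 had 0.825 and 1.19 RPKM of hoxd1.S, and 5.73 and 8.82 RPKM of Xelaev18019204m. In RPKM hoxd1.S stood at 23.4% and 5.80% of its controls in bCatMO, on 11 and 4 reads.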

How the data were processed

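PolyA-selected RNA of 46 Xenopus laevis libraries was read from one end, over 100 bases, per the labels' protocols. Per the file headers, the authors deposited RPKM, in 1 table per stage; another table, of the authors' signature genes, was not used here. The submitters' processing notes name TopHat2 2.09 and DESeq without a role. Not given in the sources used here are the build, the annotation, the counting method and the handling of strand. Each table held 1 column of averages, 2 in all, which were not used.

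There were 43662 rows at stage 10.5 and 37005 at stage 9. Whole reads were recovered from the RPKM steps: in 34080 rows of stage 10.5 and 30836 of stage 9 (those above 0 in 5 or more libraries), 100% of the steps were whole within 0.005. A column headed LiCl 3 at stage 10.5 was taken as LiCl replicate 2, whose label names control 3 as its batch. For Wnt8-labelled and Cer replicate 1 of stage 10.5, one label field names an earlier stage, and the others were followed.

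The test was limma 3.58.1 (R 4.3.3; two-sided, with the trend option of eBayes after lmFit) on log2(RPKM + 0.5), a scale on which low genes change too little, for rows of at least 1 RPKM in at least 2 libraries. Each stage had 1 fit of its whole embryos, on group and labelled batch, with 8 (stage 10.5) and 7 (stage 9) residual degrees of freedom; half-embryos had their own fit with no block. Half-embryos of the same number deviated together (correlations of 0.901, 0.861, 0.894, 0.540 and 0.831), so the numbers pair them, as the labels' numbering gives. Stage differences used Satterthwaite degrees of freedom. Alternatives were other pseudocounts, no filter, size factors, voom on the recovered reads, no batch term, each comparison alone, and leaving out each library. Python 3.11.15 ran the other steps, with pandas 2.3.3, matplotlib 3.10.9 and numpy 2.4.6.

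The members and the gene lists were chosen with earlier results of these data known. At both stages, list symbols were looked up by the names in the stage 10.5 table, a choice made after stage 9 list counts had been seen. Named genes were both hoxd1 rows, hoxb1 rows, at most 4 called rows of each list and comparison with the largest change, and the 5 rows most like each homeolog; mtx2, hnrnpa3 and hoxd3 were named as neighbours after their values were seen. Some results are not reported here.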

Additional observations from a re-analysis of the deposited data

Results flagged for a closer look

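The effect of a treatment on hoxd1 differed between stage 10.5 and stage 9 in 8 of 10 tests of that difference, from the limma coefficients of the separate fits with Benjamini-Hochberg adjustment over the 10. Differences are log2 fold changes at stage 10.5 minus those at stage 9. For bCatMO the difference was -1.0 for hoxd1.L (adjusted p = 0.00825), which was lower than its control in 3 of 3 batches at stage 10.5 and in 2 of 2 at stage 9. For LiCl it was 1.80 for hoxd1.S (adjusted p = 0.0014) and 1.06 for hoxd1.L (adjusted p = 0.00825), both higher than control in every batch of both stages. For Sia it was -0.81 for hoxd1.L (adjusted p = 0.0327). For the Wnt8-labelled libraries it was -1.62 for hoxd1.S (adjusted p = 0.000803) and -1.87 for hoxd1.L (adjusted p = 6.24e-06), with hoxd1.S higher than control in 2 of 3 batches at stage 10.5 and in 3 of 3 at stage 9. For Cer it was -1.67 for hoxd1.S (adjusted p = 0.000775) and -1.99 for hoxd1.L (adjusted p = 4.82e-06), with both rows lower than control in 3 of 3 batches at stage 10.5 and higher in 3 of 3 at stage 9. The differences that did not pass were those of hoxd1.S in bCatMO (-0.80, adjusted p = 0.0897) and in Sia (-0.56, adjusted p = 0.232). By Dixon's test no library stood apart in hoxd1.S, hoxd1.L or their ratio within the controls of stage 10.5 (6 libraries), the controls of stage 9 or either kind of half-embryo (5 libraries each), and groups of 2 or 3 libraries were not checked. That test looks at 1 end value, so it cannot show the split of the stage 10.5 controls by batch. In ventral half-embryos hoxd1.S had a gap over range of 0.633, against a limit of 0.71.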

How the results depend on the processing

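Over 271 re-computed values of the 2 hoxd1 rows, 229 kept direction and side of the threshold, 25 lost a call, 3 gained one and 14 changed sign; the causes were not tested. With labelled batch left out (no replicate block), LiCl at stage 10.5 gave 2.48 for hoxd1.S and 2.06 for hoxd1.L, Sia gave -2.10 for hoxd1.L, and Cer gave 0.55 for hoxd1.S and -0.034 for hoxd1.L, none called. In the same way stage 9 gave 1.95 for hoxd1.L in LiCl, 2.03 and 1.93 for hoxd1.S and hoxd1.L in the Wnt8-labelled libraries, none called, and 0.052 for hoxd1.S in Sia. In the half-embryos hoxd1.S was at 0.015 with a pseudocount of 0.1 and 0.035 with voom, and the pair as a replicate block changed no hoxd1 call while 422 rows were called, against 125 without it. With no filter on low values the log2 fold changes stayed at 1.89 for hoxd1.L in LiCl at stage 9 and at 2.17 and 1.97 for hoxd1.S and hoxd1.L in the Wnt8-labelled libraries, without calls (more rows adjusted over). With the libraries of the comparison alone, the Wnt8-labelled libraries gave 2.17 and 1.97 without calls, and LiCl at stage 9 gave 1.79 for hoxd1.S with a call; bCatMO at stage 9 gave no value for hoxd1.S, which missed the filter. With a pseudocount of 0.1 hoxd1.S in bCatMO at stage 9 was at -2.30 and called.

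Leaving out 1 library at a time moved hoxd1.S in the half-embryos between -0.44 and 0.36, hoxd1.L in Sia at stage 10.5 between -1.21 and -1.03, and hoxd1.L in the Wnt8-labelled libraries of stage 10.5 between -0.15 and 0.29. At stage 9 the ranges were 1.64 to 2.14 for hoxd1.L in LiCl, -0.49 to 0.19 for hoxd1.S in Sia, 1.72 to 2.65 and 1.65 to 2.24 for hoxd1.S and hoxd1.L in the Wnt8-labelled libraries, and 0.76 to 1.32 for hoxd1.L in Cer. A fit without 1 library leaves some groups with 1, assumed to vary like the others.

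Counts of rows called moved by over 1.5 times in several settings. With no batch term they were 166 for bCatMO (1346 with it), 146 for LiCl (2668), 263 for Sia (784), 8 for Wnt8-labelled (87) and 335 for Cer (856) at stage 10.5, and 51 (129), 3 (83), 21 (52), 2 (20) and 8 (74) at stage 9. With no filter they were 842 for bCatMO, 1237 for Sia and 39 for Wnt8-labelled at stage 10.5, and 84, 7, 114, 0 and 16 for bCatMO, LiCl, Sia, Wnt8-labelled and Cer at stage 9, where the 0 by limma stood beside 2449 rows at an unadjusted p below 0.05 and 47 calls by voom. Voom gave 169 for Wnt8-labelled at stage 10.5, and 41 for LiCl and 127 for Cer at stage 9. With each comparison alone there were 323 for bCatMO and 131 for Wnt8-labelled at stage 10.5, and 407, 672, 5, 2 and 14 for bCatMO, LiCl, Sia, Wnt8-labelled and Cer at stage 9. Leaving out 1 library gave 490 to 1625 for bCatMO, 595 to 1565 for LiCl, 306 to 556 for Sia, 23 to 78 for Wnt8-labelled and 562 to 771 for Cer at stage 10.5, and 50 to 74, 1 to 81, 25 to 69, at most 37 and 10 to 98 at stage 9. Depth limited hoxd1.S in bCatMO, where 0 to 11 reads stood behind each value.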
